A study of Homo sapiens with 16 samples.

Results

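The 10 imprinted genes described here were followed across 8 RNA-Seq libraries of melanoma cells treated with corin, a bivalent inhibitor of the CoREST repressor complex: *PEG10*, *SGCE*, *PEG3*, *MEST*, *IGF2*, *H19*, *MEG3*, *DLK1*, *NDN* and *SNRPN*. They were taken by symbol, 10 of 34228 genes in the count table, and they were picked with results of these counts in view. For that reason their own values are given here as a description, without a test. The libraries came from 2 BRAF inhibitor–resistant (BRAFi-R) human melanoma lines, 451Lu-R and 1205Lu-R. Each line was derived by exposure to rising doses of PLX4032 (vemurafenib) and was kept in 5 μM PLX4032. For these libraries each line was given 2.5 μM corin or the DMSO vehicle for 24 hours, with 2 libraries per group. PLX4032 was not part of these treatments. The other 8 samples of the series, which received PLX4032 with or without corin, were not analysed here. Whether the 2 libraries of a group came from separate cultures is not given for these libraries in the sources used here, and every test below then measures only the spread between them, which may be technical.

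An imprinted gene is transcribed mainly from the copy inherited from 1 parent, and the choice is held by DNA methylation of a control region that serves a cluster of neighboring genes. CoREST joins the histone deacetylases HDAC1 and HDAC2 to the histone demethylase LSD1, so that it removes acetyl and methyl groups from histones at genes it represses. The counts are totals per gene, and do not tell the parental copies apart.

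The start regions of 4 members are shown first, because the results turn on genes such as these that were at 0 or low in one line and clearly detected in the other. RefSeq promoter windows on GRCh38.p14, from 250 bases before to 50 bases after a transcript start, were matched for 5 members (*H19*, *MEG3*, *MEST*, *NDN* and *SNRPN*) in 14 windows. The letters TGCCGC are the core of the motif bound, when methylated, by ZFP57, a zinc finger protein that holds imprints. Capitals mark this motif on either strand (TGCCGC or GCGGCA). It was found in 10 of the 14 windows, many of which overlap, and in 16.7% of all 35116 promoter windows. Overlapping windows of *MEG3* and of *MEST* share matches, and the motif itself holds a CpG, so these shares are not compared. The windows printed run 5′ to 3′ on the strand of the gene: *NDN*, chr15:23687256-23687555, minus strand; *SNRPN* at the start shared with *SNURF*, chr15:24954737-24955036, plus strand; the most upstream *MEST* window, chr7:130485925-130486224, plus strand; and *H19*, chr11:2001217-2001516, minus strand.
NDN: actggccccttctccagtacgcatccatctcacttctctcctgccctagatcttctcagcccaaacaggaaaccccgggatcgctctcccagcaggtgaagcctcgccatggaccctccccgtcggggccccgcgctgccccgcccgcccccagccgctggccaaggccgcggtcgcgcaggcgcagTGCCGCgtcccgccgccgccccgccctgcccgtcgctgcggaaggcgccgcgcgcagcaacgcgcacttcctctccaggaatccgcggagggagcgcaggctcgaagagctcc
SNRPN: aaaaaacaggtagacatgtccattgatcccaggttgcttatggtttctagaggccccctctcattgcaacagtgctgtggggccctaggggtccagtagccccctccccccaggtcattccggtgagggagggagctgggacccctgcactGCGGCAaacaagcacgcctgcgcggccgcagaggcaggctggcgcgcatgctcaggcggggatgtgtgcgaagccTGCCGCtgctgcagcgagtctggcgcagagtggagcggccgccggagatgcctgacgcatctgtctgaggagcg
MEST: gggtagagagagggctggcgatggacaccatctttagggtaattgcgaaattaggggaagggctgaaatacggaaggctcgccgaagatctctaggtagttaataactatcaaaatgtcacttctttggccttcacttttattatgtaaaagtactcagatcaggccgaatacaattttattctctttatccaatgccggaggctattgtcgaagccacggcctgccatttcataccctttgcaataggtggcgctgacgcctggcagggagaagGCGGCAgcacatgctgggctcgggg
H19: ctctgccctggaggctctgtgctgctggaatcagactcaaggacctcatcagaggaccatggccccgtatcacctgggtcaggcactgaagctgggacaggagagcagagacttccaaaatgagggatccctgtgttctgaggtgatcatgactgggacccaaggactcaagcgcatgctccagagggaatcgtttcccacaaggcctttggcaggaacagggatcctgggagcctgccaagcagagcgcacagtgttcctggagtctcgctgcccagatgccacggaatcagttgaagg
The *NDN* window held 35 CpG dinucleotides and 1 motif, the *SNRPN* window 18 and 2, and the *MEST* window 13 and 1. The *H19* window held 6 CpG dinucleotides and no motif. It lies inside the annotated *H19* gene (1995166 to 2004552), so it covers 1 listed start and not the outermost one. The median over all windows was 14 CpG dinucleotides. These are matches of letters and do not mark bound sites.

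Library depth was 9516687 to 11797788 estimated counts, and the 10 most abundant genes took 5.95% to 8.78% of a library. Levels are given as CPM, the share of a library's counts scaled by its total. Corin moved most of the transcriptome. At an adjusted p under 0.05 in edgeR's quasi-likelihood test, 41.3% of the 14530 genes tested were called higher and 38.6% lower in 451Lu-R, and 40.4% and 37.8% of 14563 in 1205Lu-R. All 7 members that passed the filter on low counts in 451Lu-R were among the genes called higher. In 1205Lu-R this held for 5 of 6, and the other, *SGCE*, was not called. Against that background, and with the members picked on these same counts, nothing is read from either count. Of 10 melanocyte lineage markers, all were detected in 451Lu-R, at a summed level of 13822 to 13902 CPM with DMSO and 11881 to 11927 CPM with corin. In 1205Lu-R the sum was 29.1 to 31.1 CPM with DMSO and 48.7 to 55.6 CPM with corin, and *SOX10* and *TYR* were at 0 in all 4 libraries. Summed epithelial markers (6 genes) went from 25.2 to 29.0 CPM with DMSO up to 73.5 to 76.7 CPM with corin in 451Lu-R, and from 111 to 115 up to 174 to 186 CPM in 1205Lu-R. Summed blood and endothelial markers (5 genes) went from 1.35 to 1.74 CPM with DMSO up to 9.75 to 10.1 CPM with corin in 451Lu-R, and from 10.7 to 10.8 up to 24.4 to 28.2 CPM in 1205Lu-R. A sum does not mean that its markers moved alike. In 451Lu-R 2 melanocyte markers were called higher, 7 lower and 1 was not called. Of the 2 blood and endothelial markers tested in 1205Lu-R, *VWF* rose by 3.70 and *PECAM1* fell by 0.45 on the fitted log2 scale. The part of these marker genes in the results was not tested. Within a line, a change in the mix of cells and a change in RNA per cell cannot be told apart in bulk RNA.

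*PEG10* was the most abundant member per kb of canonical transcript in every group, a rank that depends on the transcript length used. It is a retrotransposon-derived gene on chromosome 7 (94656325 to 94669695, plus strand, GRCh38) that encodes Gag-like and Gag-Pol-like proteins through a ribosomal frameshift, is transcribed from the paternal copy, and is needed for the placenta. In 451Lu-R its level was 562 and 559 CPM with DMSO, and 2055 and 2036 CPM with corin. In 1205Lu-R it was 144 and 149 CPM with DMSO, and 838 and 842 CPM with corin. The 4 groups did not overlap, and the 2 libraries of a group lay much closer to each other than to any other group. Corin-treated cells thus had 3.65 times the DMSO level in 451Lu-R (95% exact counting interval 3.58 to 3.73) and 5.74 times in 1205Lu-R (5.53 to 5.97). These intervals, like those below, cover counting error only. The fitted log2 fold change was 1.97 (SE 0.019) and 2.45 (SE 0.032), a difference of 0.44 (SE 0.036) between lines, larger in 1205Lu-R. The size of this difference depended on the scaling, and was 0.65 with library totals alone. Ranked by mean CPM among all 34228 genes, *PEG10* went from place 225 with DMSO to place 38 with corin in 451Lu-R, and from 1476 to 133 in 1205Lu-R. With DMSO, 1205Lu-R had 0.261 times the level of 451Lu-R. A change of this size was not rare: a fitted rise at least as large was seen for 12.7% of the genes tested (451Lu-R) and for 9.36% (1205Lu-R).

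**Figure D1:**
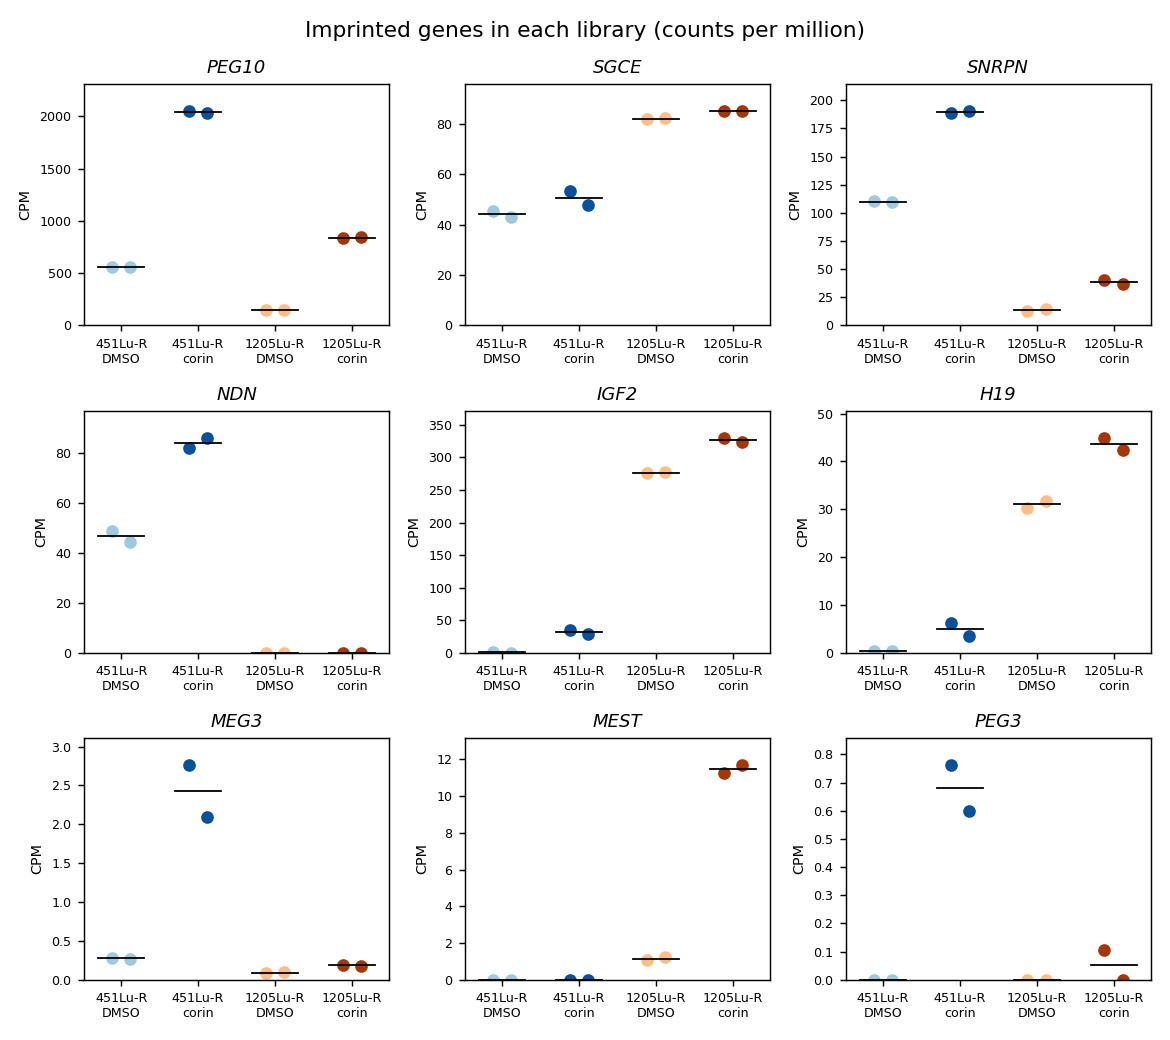
CPM of 9 imprinted genes (vertical axes, each from 0) in the 4 groups (horizontal axis). Each point is 1 library and each line the mean of 2. *PEG10* stood at 2055 and 2036 CPM with corin in 451Lu-R against 562 and 559 with DMSO, *SGCE* changed little, and *NDN* was at 0 in 1205Lu-R. *DLK1*, at 0 in all libraries, is not drawn.

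*SGCE* encodes epsilon-sarcoglycan, and mutations of its paternal copy cause myoclonus-dystonia. It is transcribed away from *PEG10* on the opposite strand, and the annotated starts of the pair lie 0.247 kb apart with overlapping ends. *SGCE* was at 45.6 and 43.3 CPM with DMSO and 53.6 and 47.9 CPM with corin in 451Lu-R. The 1205Lu-R libraries held it at 81.9 and 82.4 CPM under DMSO, and at 85.3 and 85.4 CPM under corin. The fitted log2 fold change was 0.29 (SE 0.071) and −0.02 (SE 0.045), the latter turning to 0.06 when libraries were scaled by their totals alone. So the neighbors parted in both lines. In each library the *PEG10* level was divided by the *SGCE* level: this ratio was 12.3 and 12.9 with DMSO against 38.4 and 42.5 with corin in 451Lu-R, and 1.76 and 1.81 against 9.83 and 9.86 in 1205Lu-R. Between lines with DMSO, the pair moved in opposite directions, with *SGCE* 1.85 times higher and *PEG10* lower in 1205Lu-R. Whether reads were assigned by strand is not given in the sources used here, so reads from the short overlap could belong to either gene.

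Other genes of 7q21 were tested in the same fit. Within 1 Mb of the *PEG10* start, 8 other genes were tested in each line. In 451Lu-R 4 of them rose and 2 fell, while 1205Lu-R had 5 rises and 1 fall. Genome-wide, the shares called higher and lower were 41.3% and 38.6% for the former line, 40.4% and 37.8% for the latter. Whether the neighbors departed from these shares was not tested. *TFPI2*, which encodes a serine protease inhibitor of the extracellular matrix and is imprinted in placenta, went from 0.195 ± 0.017 to 10.9 ± 1.4 CPM in 451Lu-R (SD, n = 2), a log2 fold change of 5.82 (SE 0.34, adjusted p 4.93e-12 in edgeR). It had only 2 counts in each DMSO library of 451Lu-R, so the size of that rise is uncertain. In 1205Lu-R it went from 27.5 ± 1.3 to 657 ± 1.8 CPM, or 4.51 (SE 0.045, adjusted p 2.57e-26). *PPP1R9A*, which encodes the actin-binding neurabin, rose by 2.36 (SE 0.12, adjusted p 3.97e-13) and 3.76 (SE 0.16, adjusted p 1.98e-15). *CASD1*, which overlaps *SGCE* on the other strand and encodes a sialic acid acetyltransferase, dropped by 1.12 (adjusted p 6.56e-09) and by 0.64 (adjusted p 2.62e-06). *PON2*, a lactonase gene, had values of −0.02 (adjusted p 0.674) and 0.06 (adjusted p 0.24). The change at *PEG10* therefore stood between larger rises and a fall among its neighbors.

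**Figure D2:**
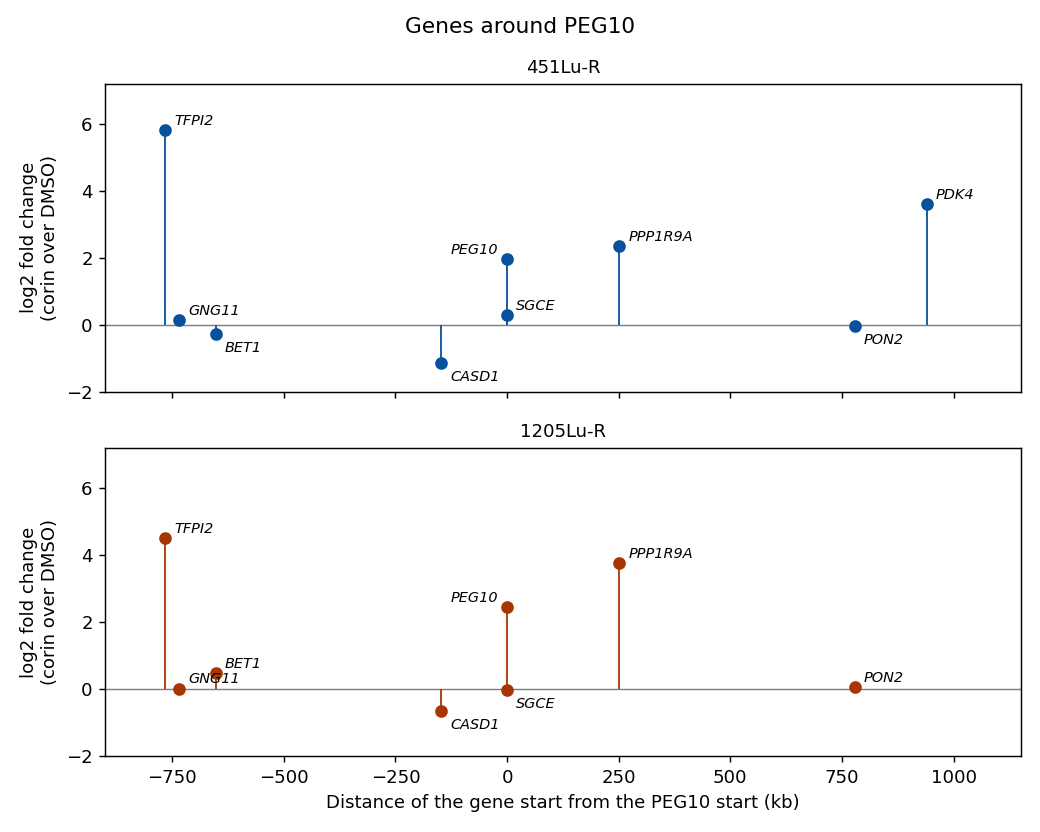
Fitted log2 fold change with corin over DMSO (vertical axis) against the distance in kb of each gene's start from the *PEG10* start (horizontal axis), with 451Lu-R in the upper panel and 1205Lu-R in the lower. Genes tested within 1 Mb with more than 3 pooled counts under DMSO are drawn. *TFPI2* and *PPP1R9A* rose in both lines, *CASD1* fell in both, and *SGCE* lay near 0 beside *PEG10*.

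The paternally expressed genes of chromosome 15q11-q13, a domain lost or silenced in Prader-Willi syndrome, differed widely between the lines. *SNRPN* encodes the Sm-like protein SmN and shares its upstream exons with *SNURF*. It was at 110 CPM in both DMSO libraries and 189 and 191 CPM with corin in 451Lu-R. Levels in 1205Lu-R were lower, at 12.99 and 14.2 CPM under DMSO and 40.7 and 37.0 CPM under corin. No groups overlapped. The fitted log2 fold change was 0.89 (SE 0.036) and 1.44 (SE 0.094), and with DMSO 1205Lu-R had 0.124 times the level of 451Lu-R. *NDN*, an intronless gene that encodes the MAGE family growth suppressor necdin, was at 48.9 and 44.3 CPM with DMSO and 81.9 and 86.2 CPM with corin in 451Lu-R, or 0.94 on the fitted log2 scale (SE 0.061). It was at 0 counts in all 4 libraries of 1205Lu-R, where 3 counts would be 0.270 to 0.315 CPM. With DMSO this placed 1205Lu-R at least 168-fold lower, with the floor set at 3 counts per library. *NDN* and *SNRPN* thus had similar ratios in 451Lu-R, 1.79 and 1.73, but only *SNRPN* was detected in 1205Lu-R.

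Their neighbors split by gene. *SNHG14*, the host transcript of the domain's small nucleolar RNAs, which runs on from *SNRPN* and is antisense to *UBE3A* at its far end, rose by 0.56 in 451Lu-R (SE 0.043, adjusted p 3e-10) and 0.99 in 1205Lu-R (SE 0.14, adjusted p 1.94e-06). *UBE3A*, the ubiquitin ligase gene of Angelman syndrome, fell by 0.37 (SE 0.037, adjusted p 2.38e-08) and by 0.72 (SE 0.042, adjusted p 8.93e-13). *MAGEL2*, the intronless neighbor of *NDN*, had 4 pooled counts with DMSO and 166 with corin in 451Lu-R, a ratio of 39.2 (95% exact counting interval 15.0 to 145), and was at 0 in 1205Lu-R. Its fitted value of 5.31 (adjusted p 2.23e-10) ran from 4.66 to 6.30 without one or the other DMSO library. *MKRN3*, a makorin ring finger gene, was at 4.86 ± 0.14 and 5.20 ± 0.56 CPM in 451Lu-R (adjusted p 0.369) and at 0 in both DMSO libraries of 1205Lu-R. *ATP10A*, a phospholipid flippase gene, fell by 0.56 in 451Lu-R (SE 0.083, adjusted p 3.86e-06) and was at 0 in 1205Lu-R, at least 125-fold lower with DMSO. *SNURF* rose by 1.41 in 451Lu-R (SE 0.60, adjusted p 0.0375), but the call was lost with DESeq2 (adjusted p 0.338) and on leaving out the first DMSO library (adjusted p 0.208), and the value turned to −0.04 without the second corin library (adjusted p 0.966). Reads that *SNRPN*, *SNURF* and *SNHG14* share cannot be placed with certainty. As strand use is not given, reads from the overlap of *SNHG14* and *UBE3A* could belong to either gene.

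*IGF2* and *H19* were near 0 in one line and abundant in the other. *IGF2* encodes a fetal growth factor and is transcribed from the paternal copy, whereas *H19* is a maternally expressed long noncoding RNA downstream of it, and the pair shares enhancers and a CTCF-bound control region on 11p15. In 451Lu-R *IGF2* had 4 and 1 counts with DMSO (0.367 and 0.104 CPM), and 34.6 and 29.0 CPM with corin. The ratio was 132, with an exact counting interval of 56.2 to 407. On the fitted log2 scale this was 7.07 (SE 0.25), or 8.20 without the first DMSO library and 6.50 without the second. In 1205Lu-R it was at 276 and 278 CPM with DMSO and 330 and 324 CPM with corin, a ratio of 1.18 and a fitted log2 fold change of 0.17 (SE 0.031). With DMSO, 1205Lu-R stood 1138 times above 451Lu-R (interval 487 to 3506), a fold that rests on those 4 and 1 counts: its fitted log2 value, 10.19, was 11.32 without the first and 9.62 without the second DMSO library of 451Lu-R. With corin, 451Lu-R, at 34.6 and 29.0 CPM, was well below 1205Lu-R. *IGF2* overlaps the read-through gene *INS-IGF2* on its own strand and *IGF2-AS* on the other.

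*H19* followed the same order of groups. It had 4 counts in each DMSO library of 451Lu-R (0.367 and 0.414 CPM), and 6.27 and 3.50 CPM with corin, a log2 fold change of 3.73 (SE 0.43). In 1205Lu-R it was at 30.4 and 31.8 CPM with DMSO and 45.0 and 42.5 CPM with corin, a log2 fold change of 0.42 (SE 0.073). For both genes the fitted response was smaller in 1205Lu-R, by 6.94 (SE 0.26; 6.37 to 8.08 without one or the other DMSO library of 451Lu-R) for *IGF2* and 3.36 (SE 0.41) for *H19*, where DMSO levels were already high. The *IGF2* level over the *H19* level was 9.08 and 8.72 in the DMSO libraries of 1205Lu-R and 7.35 and 7.62 in its corin libraries, and 5.51 and 8.28 in corin-treated 451Lu-R.

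Within 1 Mb of the *IGF2* start, 19 genes other than members were tested in each line. Of these, 9 rose and 5 fell in 451Lu-R, against 10 and 8 in the other line. Such counts stand beside genome-wide shares of 41.3% higher and 38.6% lower for 451Lu-R, 40.4% and 37.8% for 1205Lu-R. A departure from those shares was not tested. In the neighboring 11p15 domain, *CDKN1C*, which encodes the cyclin-dependent kinase inhibitor p57, rose by 1.46 in 451Lu-R (SE 0.099, adjusted p 4.96e-11) and 2.84 in 1205Lu-R (SE 0.40, adjusted p 1.49e-06). The latter rests on 4 and 6 counts in the DMSO libraries. *PHLDA2*, a pleckstrin homology gene that limits placental growth, rose by 2.57 (SE 0.094, adjusted p 2.53e-15) and 1.19 (SE 0.030, adjusted p 2.74e-19). *KCNQ1OT1*, the paternal antisense RNA of the domain, rose in 1205Lu-R by 1.33 (SE 0.13, adjusted p 3.55e-09). In 451Lu-R its value was 0.10 (SE 0.19, adjusted p 0.645). *SLC22A18*, a transporter gene, rose by 0.61 (adjusted p 4.27e-05) and, in 1205Lu-R, from 5.92 ± 1.5 to 12.4 ± 1.9 CPM (adjusted p 1.63e-05). *TSSC4*, which lies between *IGF2* and this cluster, fell by 1.60 (adjusted p 4.94e-10) and by 1.99 (adjusted p 1.36e-16).

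*MEST*, *PEG3*, *MEG3* and *DLK1* were low or undetected. *MEST*, a paternally expressed gene on 7q32 of the alpha/beta hydrolase family, was at 0 counts in all 4 libraries of 451Lu-R. In 1205Lu-R it was at 1.08 and 1.22 CPM with DMSO and 11.2 and 11.7 CPM with corin, a ratio of 9.97 (6.59 to 15.7). Its neighbors in 7q32 include *CPA4*, a carboxypeptidase gene, which rose from 4.53 ± 0.28 to 252 ± 9 CPM in 1205Lu-R (log2 fold change 5.72, SE 0.073, adjusted p 1.76e-24) and was at 0 with DMSO in 451Lu-R. *KLF14*, a zinc finger gene of the same cluster, rose by 2.13 (SE 0.40, adjusted p 7.89e-05) and 2.90 (SE 0.17, adjusted p 6.84e-13). *COPG2*, which overlaps *MEST* on the other strand and encodes a coatomer subunit, rose by 0.56 in 1205Lu-R (SE 0.053, adjusted p 2.78e-09) and had a value of −0.03 in 451Lu-R (adjusted p 0.592).

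*MEG3*, a maternally expressed long noncoding RNA on 14q32, had about 3 counts in each DMSO library of 451Lu-R (0.285 and 0.273 CPM) and 2.77 and 2.09 CPM with corin, a ratio of 8.49 (3.66 to 24.2). In 1205Lu-R it had no more than 2 counts in any library. *MEG8*, a maternally expressed RNA of the same domain, had values of 0.93 (adjusted p 0.0582) and −0.13 (adjusted p 0.766). The value in 451Lu-R ran from 0.24 to 1.60 with 1 library left out, and passed the threshold without the second DMSO library (adjusted p 0.00509), without the second corin library (adjusted p 0.0103) and with no filter (adjusted p 0.0284). *DLK1*, its paternally expressed partner, which encodes a Notch-like transmembrane protein, was at 0 in all 8 libraries, where a count of 3 would be 0.254 to 0.315 CPM. *PEG3*, a paternally expressed zinc finger gene on 19q13, was at 0 with DMSO in both lines. It had 9 and 6 counts with corin in 451Lu-R (0.763 and 0.600 CPM), at least 2.33-fold higher, and 1 and 0 counts in 1205Lu-R.

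**Figure D3:**
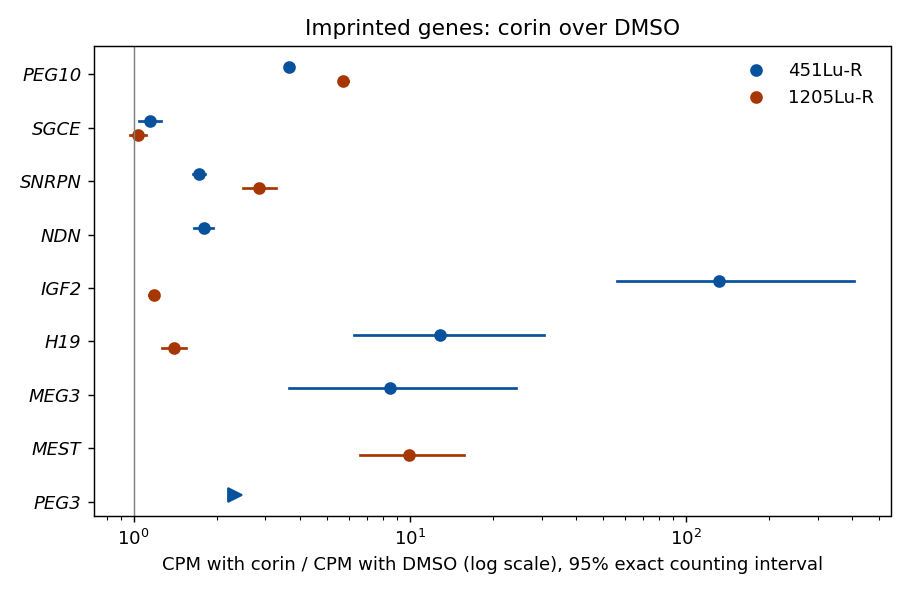
Ratio of the CPM with corin to the CPM with DMSO (horizontal axis, log scale) for 9 imprinted genes in 451Lu-R and 1205Lu-R. Bars are 95% exact counting intervals, which are narrower than the points for *PEG10*, and the triangle for *PEG3* is a lower bound. A gene is left out in a line where both groups had 3 or fewer counts in every library. *IGF2* ranged most widely, at 132 in 451Lu-R against 1.18 in 1205Lu-R.

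Ordered by CPM per kb of the canonical transcript, a rough allowance for length that rests on the transcript chosen, the members stood as follows with DMSO. In 451Lu-R *PEG10* was at 217 CPM per kb, *SNRPN* at 75.0, *NDN* at 24.4 and *SGCE* at 23.8, and no other member passed 1. *NDN* and *SGCE* did not differ beyond the spread of their libraries. In 1205Lu-R *PEG10* was at 56.6, *IGF2* at 49.6, *SGCE* at 43.97, *H19* at 28.1 and *SNRPN* at 9.26. The canonical transcript of *PEG10* is 2585 bases long, while its annotated exons together cover 6689. The lead of *PEG10* over *IGF2* in this group depends on that choice. By CPM alone *IGF2* was higher there, at 277 against 146. With corin, *PEG10* reached 791 in 451Lu-R, where *SNRPN* came next at 129, and it reached 325 in 1205Lu-R, where *IGF2* came next at 58.6.

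A list of 52 other imprinted genes, of which 46 were in the table, set these members in context. Counts per gene do not show which of these genes, or which of their transcripts, were imprinted in these cells. In 451Lu-R 29 were tested: 18 rose, 5 fell and 6 were not called, where 41.3% of all genes tested rose and 38.6% fell. The median log2 fold change was 0.56 against 0.03 for all genes tested. In 1205Lu-R 28 were tested: 17 rose, 8 fell and 3 were not called, where 40.4% of all genes tested rose and 37.8% fell. The median was 0.93 against 0.03. By the stricter rule of a 4-fold change at an adjusted p under 0.001, 6 and 8 genes of the list rose and none fell. Several of these had few counts per DMSO library: in 451Lu-R *KCNQ1* (0), *TFPI2* (2), *MAGEL2* (1 to 3) and *KLF14* (6). In 1205Lu-R they included *SNURF*, *CDKN1C* and *FAM50B*. Such genes passed the filter through the corin group and could be called only as rises. For that reason nothing is read from the lack of falls or from the medians. By that rule 12.4% and 11.3% of all genes tested rose and 2.72% and 1.43% fell. *FAM50B*, a retrogene, rose by 3.02 (SE 0.37, adjusted p 1.53e-07; 2.43 to 4.07 without one or the other DMSO library) and *PLAGL1*, a zinc finger gene of the transient neonatal diabetes locus, by 2.89 (SE 0.19, adjusted p 6.22e-12) in 1205Lu-R, and both were at 0 in 451Lu-R. *NAP1L5* and *ZDBF2*, both paternally expressed, rose in both lines, by 1.48 and 0.89 (adjusted p 2.22e-11 and 1.63e-05) and by 0.62 and 0.97 (adjusted p 8.62e-08 and 1.4e-11). *BLCAP* and *NAA60* fell in both, *BLCAP* by 0.54 (adjusted p 1.57e-06) and by 0.91 (adjusted p 5.85e-09).

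Of the 24 genes of this list tested in both lines, 11 rose in both, 3 fell in both, and 5 rose in 451Lu-R while falling in 1205Lu-R; none did the reverse. Of the 13200 genes tested in both lines, 28.8% rose in both, 28.5% fell in both, 5.96% were of the mixed kind just given and 4.13% of its reverse. Those 5 were *HERC3*, *IGF2R*, *GRB10*, *INPP5F* and *GNAS*, named after their values were seen. *IGF2R*, the receptor that clears IGF2 from the cell surface, had a log2 fold change of 0.72 (SE 0.023, adjusted p 2.98e-16) and −0.36 (SE 0.030, adjusted p 4.18e-10). *GRB10*, an adaptor that restrains insulin and IGF signaling, had 0.76 (SE 0.039, adjusted p 4.59e-13) and −0.31 (SE 0.033, adjusted p 1.79e-08). The *GNAS* value in 451Lu-R, 0.06 (SE 0.018, adjusted p 0.00521), turned to −0.04 (adjusted p 0.0554) when scaled by library totals alone. Across the list, the response differed between lines for 16 of 33 genes tested, 7 higher and 9 lower in 1205Lu-R. For 8 of the 33 the difference had no estimate, because 1 line had 3 or fewer counts in each of its libraries. Of all genes tested, 49.7% were called (22.6% higher and 27.1% lower). Scaled by library totals alone, the share of those genome-wide calls that were higher in 1205Lu-R moved from 45.4% to 64.0%. With DMSO, 12 were higher and 14 lower in 1205Lu-R among 29 tested, where 41.0% and 41.5% of all genes were. *ZNF597*, a zinc finger gene, was at least 20.8-fold higher there, and *MKRN3* at least 17.5-fold lower.

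**Figure D4:**
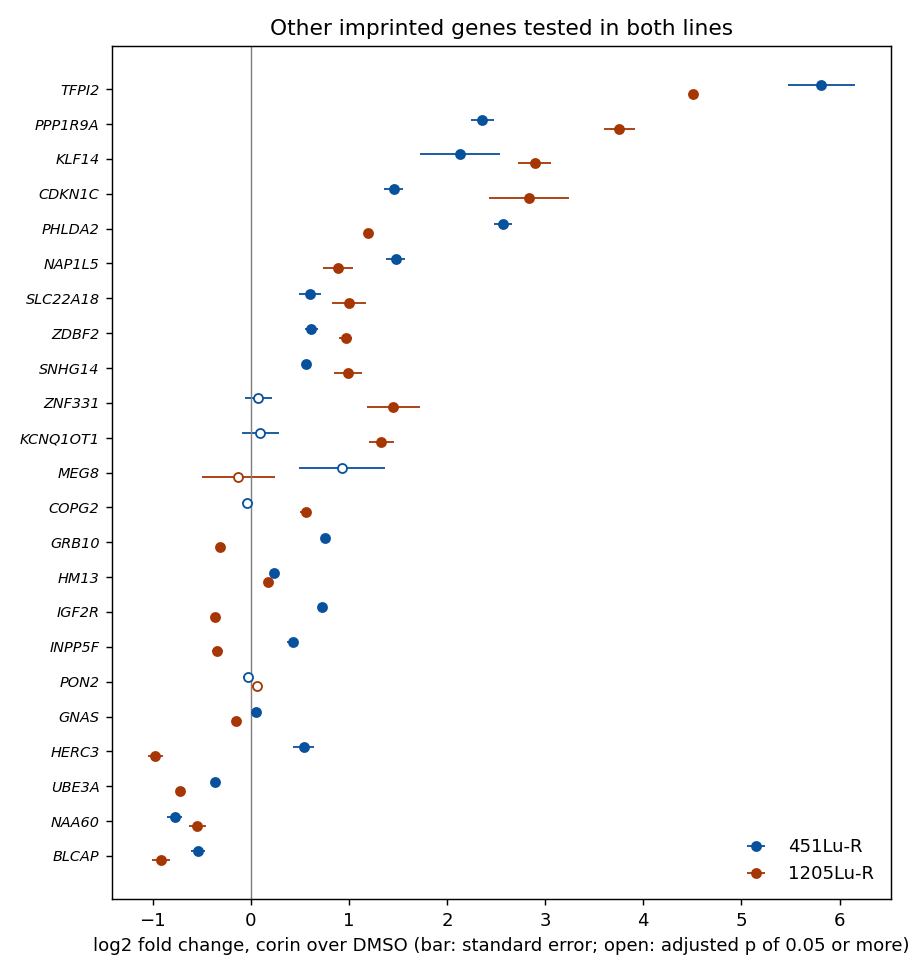
Fitted log2 fold change with corin over DMSO (horizontal axis) of 23 other imprinted genes tested in both lines. Bars are standard errors and open points had an adjusted p of 0.05 or more in edgeR. Genes are ordered by the sum of their values in both lines, with *TFPI2* and *PPP1R9A* on top, and *HERC3*, *IGF2R*, *GRB10*, *INPP5F* and *GNAS* lie on opposite sides of 0 in the 2 lines. *SNURF*, with 1 pooled count under DMSO in 1205Lu-R, is not drawn.

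The families of the members were then read from the same fits, in which, as above, 41.3% of all genes rose and 38.6% fell in 451Lu-R, against 40.4% and 37.8% for the other line. Each family count below is to be read beside those shares. *PEG10* belongs to the genes derived from retrotransposon Gag proteins: 8 rose, 1 fell and 3 were not called of 12 tested in 451Lu-R, and 4 rose, 6 fell and 1 was not called of 11 in 1205Lu-R, with medians of 0.58 and −0.41. *ZCCHC12*, a zinc knuckle gene, was at 0 with DMSO and 17.7 ± 0.89 CPM with corin in 451Lu-R, at least 60.3-fold higher, and went from 1 to 250 pooled counts in 1205Lu-R. *RTL5* rose in both, by 2.63 (adjusted p 9.86e-09) and 0.97 (adjusted p 5.48e-09). *PNMA1*, a neuronal antigen gene, rose by 0.76 in 451Lu-R (adjusted p 2.41e-09) and fell by 1.20 in 1205Lu-R (adjusted p 6.46e-16).

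Among genes of the insulin-like growth factor system that act with *IGF2*, 9 rose and 2 fell of 11 tested in 451Lu-R, and 7 rose and 5 fell of 13 in 1205Lu-R. The binding protein gene *IGFBP5* rose by 2.37 (adjusted p 3.73e-21) and 3.37 (adjusted p 6.17e-12). *IGFBP3* rose from 72.7 ± 1.7 to 901 ± 11 CPM in 1205Lu-R (adjusted p 5.25e-26), and had 2 pooled counts or fewer per group in 451Lu-R. The genes for the *IGF2* mRNA-binding proteins went the other way: *IGF2BP3* fell by 1.76 (adjusted p 2.13e-12) and by 0.96 (adjusted p 2.37e-15), *IGF2BP2* by 1.72 (adjusted p 4.41e-16) and by 0.73 (adjusted p 3.56e-14), and *IGF2BP1* by 2.77 in 1205Lu-R (adjusted p 2.1e-19). *IGF2BP1*, like *IGF2*, was far lower in 451Lu-R, at 0.553 ± 0.10 CPM with DMSO against 106 ± 1.9.

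The complex that holds epsilon-sarcoglycan links dystrophin to the extracellular matrix. Of its other genes, 5 rose and 4 fell of 10 tested in 451Lu-R, and 4 rose and 4 fell of 10 in 1205Lu-R. *DMD*, which encodes dystrophin, rose by 5.73 (SE 0.22, adjusted p 4.37e-15; 4.996 to 7.003 without one or the other DMSO library) and 3.06 (SE 0.19, adjusted p 1.84e-12), and *DAG1*, the dystroglycan gene, by 1.81 (adjusted p 5.67e-20) and 0.73 (adjusted p 2.84e-15). *SGCD*, the delta-sarcoglycan gene, fell from 98.3 ± 1.2 to 7.75 ± 0.91 CPM in 451Lu-R (adjusted p 2.75e-18) and was at 0.868 ± 0.56 CPM with DMSO in 1205Lu-R. *SSPN*, the sarcospan gene, fell by 2.06 (adjusted p 0.0004) and by 2.02 (adjusted p 2.17e-05). The medians of the list, 0.19 and 0.02, were near the 0.03 of all genes tested.

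*NDN* belongs to the MAGE homology family, of which 5 rose and 3 fell of 8 tested in 451Lu-R, and 2 rose and 4 fell of 7 in 1205Lu-R, with medians of 0.25 and −0.24 against 0.03 for all genes in either line. *MAGED2* fell in both, by 1.07 (adjusted p 1.19e-16) and by 1.52 (adjusted p 1.36e-16). *MAGED4* fell by 2.30 in 451Lu-R (adjusted p 4.92e-07), and by 1.56 without the first DMSO library, though it is nearly identical to *MAGED4B* and their reads may be split between them. The spliceosomal Sm protein genes, the ubiquitous relatives of *SNRPN*, moved away from it: none of 7 rose, with 7 falling in 451Lu-R and 5 in 1205Lu-R. *SNRPB*, whose protein SmN resembles most, fell by 0.95 (adjusted p 4.4e-16) and by 0.90 (adjusted p 1.05e-16).

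Of genes that set, read, keep or erase DNA methylation and imprints, which include the demethylase genes *TET1*, *TET2* and *TET3*, 1 rose and 10 fell of 14 tested in 451Lu-R, and 3 rose and 9 fell of 14 in 1205Lu-R, with medians of −0.70 and −0.46. *UHRF1*, which brings the maintenance methyltransferase to replicated DNA, fell by 2.12 (SE 0.091, adjusted p 2.87e-14) and by 1.33 (SE 0.038, adjusted p 2.07e-18). *TET2*, which encodes an enzyme that removes DNA methylation, also fell, by 0.89 (adjusted p 3.19e-07) and by 1.42 (adjusted p 1.14e-08). Of the de novo methyltransferase genes, *DNMT3A* fell by 1.07 (adjusted p 1.64e-09) and by 0.78 (adjusted p 1.16e-05), and *DNMT3B* rose by 1.53 in 1205Lu-R (SE 0.27, adjusted p 2.16e-05) and had a value of 0.29 in 451Lu-R (adjusted p 0.0727). *SETDB1*, a histone H3 lysine methyltransferase gene, fell by 1.23 (adjusted p 2.07e-10) and by 0.75 (adjusted p 9.78e-06). *ZNF445*, a zinc finger gene that keeps imprints, rose by 1.23 in both lines (adjusted p 1.14e-11 and 4.01e-12). *ZFP57* was at 0 in 451Lu-R and at 8.53 ± 0.052 CPM with DMSO in 1205Lu-R. DNA methylation itself was not measured in these libraries.

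The genes whose pattern was most like that of *PEG10* were found by Pearson's r of log2 CPM over the 8 libraries, among 9999 genes with a mean of at least 10 CPM. They were *PLA2G12A* (r = 0.999), *PCTP* (0.999), *TUBB4A* (0.998), *AK4* (0.998) and *SNX2* (0.998). The 8 points are 4 pairs of near-equal libraries, and the correlation is a description only. *TUBB4A*, which encodes a beta-tubulin of the brain, went from 34.2 to 343 CPM in 451Lu-R and from 3.51 to 86.8 CPM in 1205Lu-R.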

How the data were processed

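Polyadenylated RNA of 451Lu-R and 1205Lu-R cells was sequenced on an Illumina NextSeq. Per the labels the authors trimmed reads with Trimmomatic and quantified them with Salmon, and the deposited values are estimated counts per gene, not normalized, under GENCODE 32 identifiers (GRCh38). Whether strand was used is not given in the sources used here. Tables of the authors' own comparisons (log2 fold changes and adjusted p-values of PLX4032 plus corin against PLX4032) were not used.

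Identifiers were matched to GENCODE 44, with 34052 of 34228 carrying a symbol. Estimated counts were rounded and fitted over the whole table with edgeR 4.0.16 in R 4.3.3 (filterByExpr, TMM, quasi-likelihood F test, 2-sided, Benjamini-Hochberg), within each line, between the DMSO groups, and for the difference of responses. Each SE is the log2 fold change over the square root of F. CPM is the count over the library total. Folds against a group at 0 used a floor of 3 counts per library. Named genes of each list were its neighbors of a member and at most 5 with the largest change among those called, above a mean of 1 CPM and without overlap of groups; a few others are named as examples. The members and lists were chosen with earlier results of these data known. The fits were tested on simulated data. Alternatives were DESeq2 1.42.0, other scalings and filters, all 8 libraries fitted at once, a replicate block, and each library left out. Sequences were taken from RefSeq.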

Additional observations from a re-analysis of the deposited data

Results flagged for a closer look

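The 9 other imprinted genes listed here responded to corin differently in the 2 lines, by edgeR's quasi-likelihood test of the difference itself (log2 fold change in 1205Lu-R minus that in 451Lu-R). The difference was 1.36 for *PPP1R9A* (SE 0.24, adjusted p 5.49e-05), 1.34 for *ZNF331* (SE 0.29, adjusted p 0.000534) and 1.34 for *CDKN1C* (SE 0.39, adjusted p 0.0067), all with the larger rise in 1205Lu-R. It was −1.41 for *PHLDA2* (SE 0.11, adjusted p 3.99e-10), which rose in both lines and more in 451Lu-R. For genes with a rise in 451Lu-R against a fall in 1205Lu-R, the difference was −1.55 for *HERC3* (SE 0.13, adjusted p 3.03e-09), −1.12 for *IGF2R* (SE 0.040, adjusted p 1.21e-15), −1.11 for *GRB10* (SE 0.051, adjusted p 8.78e-14), −0.80 for *INPP5F* (SE 0.082, adjusted p 3.37e-08) and −0.25 for *GNAS* (SE 0.020, adjusted p 5.15e-10). Scaling by library totals alone moved the median difference of all genes by 0.21, and under it the *GNAS* difference was −0.04 (adjusted p 0.0943). Without the second DMSO library of 1205Lu-R, the *CDKN1C* difference was 1.11 (adjusted p 0.0848).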

How the results depend on the processing

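All counts of genes called kept within 1.5 times under DESeq2, other scalings and filters, the replicate block, all libraries in one fit and each library left out. The stricter 4-fold rule alone moved them, to 2198 genes in 451Lu-R, 1858 in 1205Lu-R, 2922 between lines and 893 for the difference, and to 6, 8, 12 and 0 of the other imprinted genes. The 0 was also 0 with DESeq2, and 17 of 33 had an unadjusted p under 0.05 in edgeR and 17 in DESeq2. Replicate numbers did not pair the libraries: deviations of same-numbered libraries correlated at −0.013 for 451Lu-R and at −0.0056 for 1205Lu-R, and at 0.052 between the DMSO libraries of the lines. With the replicate block, 23, 25, 26 and 17 other imprinted genes were called against 23, 25, 26 and 16 without it.

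Library totals alone shifted the median log2 fold change of all genes by −0.11 between lines and turned the sign for *SGCE* in 1205Lu-R (0.0566), and for 3 genes in 451Lu-R: *GNAS* (−0.0391), *ZNF331* (−0.0194) and *KCNQ1OT1* (−0.0002). With 1 library left out, values in 451Lu-R ranged for *KCNQ1OT1* from −0.0405 to 0.2657, for *PON2* from −0.055 to 0.011, for *SNURF* from −0.0351 to 2.7255 and for *MEG8* from 0.2435 to 1.5991 (adjusted p 0.0582 with all), and in 1205Lu-R for *MEG8* from −0.4259 to 0.1542 and for *PON2* from −0.0071 to 0.1309. The cause was not tested. Values under 10 counts are limited by depth.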
